A study of Mus musculus with 6 samples.

Results

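The nuclear genes of the mitochondrial respiratory chain were followed across macrophages, B cells and T/NK cells of the mouse peritoneum, complex by complex. The members were all features of the count table whose symbol starts with Nduf, Sdha, Sdhb, Sdhc, Sdhd, Uqcr, Cox4i, Cox5, Cox6, Cox7, Cox8 or Atp5, without those whose symbol carries the ending -ps. This rule gave 102 of 55538 features. By their known roles, 84 were subunits (36 of complex I, 4 of complex II, 8 of complex III, 19 of complex IV and 17 of complex V), 14 were assembly factors or related proteins and 4 were copies of a subunit gene that are themselves pseudogenes (Ndufa11b, Ndufb4c, Ndufs6b and Cox6c2). Together they held 574747 unique molecular identifiers (UMIs, each standing for 1 captured transcript molecule), 1.44% of the UMIs of all cells kept.

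The respiratory chain sits in the inner mitochondrial membrane. Complexes I and II take electrons from NADH and succinate, complex III passes them on to cytochrome c, complex IV hands them to oxygen, and complex V, the ATP synthase, uses the proton gradient that the pumping complexes build. All complexes but complex II combine subunits encoded in the nucleus with subunits encoded by the mitochondrial genome. Complex II is wholly nuclear and is also an enzyme of the citric acid cycle. In macrophages the balance between this chain and glycolysis is known to shift with activation, and resident and inflammatory macrophages are known to differ in their mitochondrial metabolism.

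The study used 10x 5′ single-cell RNA sequencing of adherent peritoneal cells from C57BL/6 mice 8 to 12 weeks old. Its 6 libraries, each a pool of cells from 3 mice, came from Mertk+/+ and Mertk-/- animals, the latter lacking the efferocytosis receptor MerTK, and cells of each genotype were given either a control media change or UV-treated apoptotic Jurkat cells, a human T cell line expressing GFP, for 2 h or 6 h. There was 1 library per condition, after 1 h of plating to remove cells that did not adhere. The count table marks each cell by a library number from 1 to 6 at the end of its barcode, and nothing in the sources used here ties these numbers to genotype or time, so genotypes and times were not compared. Library numbers are used below to show whether a difference between cell classes recurs in each library, and their cells may differ in genotype and treatment.

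Libraries held between 4234786 and 10287079 UMIs (median 6976772). Of 7760 barcodes, 7665 were kept, and 28 barcode sequences occurred in more than 1 library, never in more than 2. A kept cell was called a macrophage with at least 2 UMIs of Csf1r, Adgre1 and Fcer1g together, at most 2 of Cd79a and Cd79b and at most 1 of Cd3d, Cd3e and Nkg7, a B cell with at least 4 Cd79a and Cd79b UMIs, and a T/NK cell with at least 2 Cd3d, Cd3e and Nkg7 UMIs. This gave 2773 macrophages (median 4426 UMIs per cell), 2948 B cells (5416) and 514 T/NK cells (2813.5). Cells that met both lymphocyte limits (153) were left out, and 1430 kept cells fell in no class. Among macrophages, 635 held Gata6 without Irf4, Gata6 being the transcription factor of large peritoneal macrophages, and 255 held Irf4 without Gata6, Irf4 being a factor of small, MHC class II-high peritoneal macrophages and dendritic cells. The 22 macrophages holding both were left out of the comparison of these classes, and 1861 held neither. The 6 macrophage markers summed to 19507 CPM (UMIs of a gene per 1e6 UMIs of its class) in macrophages, 367 in B cells and 2598 in T/NK cells. In T/NK cells that sum ran from 44.4 to 5451 CPM over the library numbers, and the part of this macrophage RNA in the values below was not tested.

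Promoter sequence was available for 67 of the 84 subunits, taken from RefSeq on GRCm38.p6 as the 300 bases from 250 before to 50 after the annotated start. For each gene only the first promoter listed was used, so any other starts of a gene were not searched. Exact matches on both strands were sought to the letters GCGCANGCG, the core bound by NRF1, a transcription factor known for its sites in respiratory chain promoters, to CCGGAAG, bound by ETS factors such as GABP, and to AAGATGGCG, bound by YY1. The NRF1 letters occurred in 19 of the 67 subunit promoters (28.4%) against 6.47% of all 27025 promoters of that length. The ETS letters occurred in 15 (22.4% against 9.12%) and the YY1 letters in 6 (8.96% against 1.49%). By complex, the NRF1 letters were in 8 of 32 promoters of complex I, 2 of 3 of complex II, 2 of 5 of complex III, 1 of 13 of complex IV and 6 of 14 of complex V. The ETS letters end in AAG, with which the YY1 letters begin, so that a stretch can match both, and the NRF1 letters can match both strands of the same stretch. A match describes letters in the window, not binding.

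Promoters of complex II are shown because this complex stood apart from the others in the cell classes, as described below. Each sequence is the stretch just before the annotated start, 5′ to 3′ on the strand of the gene, with capitals marking the NRF1 letters (GCGCANGCG) or the ETS letters, which appear in Sdhd as the reverse complement CTTCCGG. Sdha (chr13:74350241-74350360, minus strand) holds 3 matches to the NRF1 letters, Sdhd (chr9:50603850-50603969, minus strand) holds 1 match to each of the NRF1 and ETS letters, and Sdhb (chr4:140961151-140961270, plus strand) holds none in the stretch shown, its ETS match lying elsewhere in the 300 bases.
Sdha: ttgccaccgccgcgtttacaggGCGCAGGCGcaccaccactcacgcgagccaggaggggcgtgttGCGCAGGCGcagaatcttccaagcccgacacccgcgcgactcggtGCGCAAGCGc
Sdhb: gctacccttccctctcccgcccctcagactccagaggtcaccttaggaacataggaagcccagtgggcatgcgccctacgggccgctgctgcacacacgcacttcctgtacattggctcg
Sdhd: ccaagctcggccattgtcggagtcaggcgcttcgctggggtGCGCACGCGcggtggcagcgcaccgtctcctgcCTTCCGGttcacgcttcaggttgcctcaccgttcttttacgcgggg

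Promoters of the genes for subunit c of the ATP synthase are shown because 3 genes encode the same mature protein and their shares differed between cell classes. Atp5g2 (chr15:102671048-102671167, minus strand) carries the NRF1 letters on both strands in 1 palindromic stretch, in capitals. Atp5g1 (chr11:96075632-96075751, minus strand) holds none of the letters sought in its 300 bases, and Atp5g3 (chr2:73911327-73911446, minus strand) holds an NRF1 match outside the stretch shown.
Atp5g1: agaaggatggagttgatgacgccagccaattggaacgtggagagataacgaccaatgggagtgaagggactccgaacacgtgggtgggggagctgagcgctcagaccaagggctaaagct
Atp5g2: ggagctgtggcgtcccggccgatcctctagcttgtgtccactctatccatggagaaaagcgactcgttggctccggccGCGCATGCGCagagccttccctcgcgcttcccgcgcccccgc
Atp5g3: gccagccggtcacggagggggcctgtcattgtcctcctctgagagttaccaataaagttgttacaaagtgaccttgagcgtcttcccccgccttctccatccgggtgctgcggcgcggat

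Nuclear respiratory chain transcripts took a smaller part of the UMIs of macrophages than of lymphocytes. The 84 subunits summed to 10333 CPM in macrophages, with 11055, 11079, 14004, 8512, 8021 and 10094 CPM in library numbers 1 to 6. In B cells the sum was 15707 CPM, with 16093, 15334, 17663, 15193, 14536 and 13185 CPM in the same order. T/NK cells summed to 15393 CPM, between 13515 and 15976 CPM by library number. Within each of the 6 libraries macrophages lay below both lymphocyte classes, although the macrophages of library number 3 were above the B cells of library number 6 and above the lowest T/NK value. UMI shares do not separate a lower number of these transcripts per cell from a larger number of other transcripts. Phagocytes may also carry RNA of the cells they engulf, and any part of Jurkat cell RNA in these values was not tested. Of the 84 subunits, 75 reached 5 CPM in macrophages and 36 reached 100 CPM, while 75 and 47 did so in B cells and 75 and 50 in T/NK cells.

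The gap was found in 4 of the 5 complexes. Complex I, the NADH dehydrogenase, summed to 2476 CPM in macrophages, 3896 in B cells and 4301 in T/NK cells. Complex III, the cytochrome bc1 complex, summed to 1328, 1822 and 1740 CPM in the same order. Complex IV, cytochrome c oxidase, summed to 3175, 4503 and 4150 CPM, and complex V to 3116, 5265 and 4934 CPM. For these complexes macrophages were below both lymphocyte classes within each library, except for complex IV in library number 3, with 4583 CPM in macrophages and 4447 in T/NK cells. Complex II differed, with 236 CPM in macrophages, 221 in B cells and 268 in T/NK cells. As a share of all subunit UMIs, a measure that does not depend on the rest of the transcriptome, complex II held 2.29% in macrophages (1.65% to 3.13% by library number), 1.40% in B cells (1.24% to 1.64%) and 1.74% in T/NK cells (1.48% to 2.07%). The macrophage share was above both lymphocyte shares within every library. Complex V went the other way between the pooled classes, with 30.2% in macrophages, 33.5% in B cells and 32.1% in T/NK cells.

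**Figure D1:**
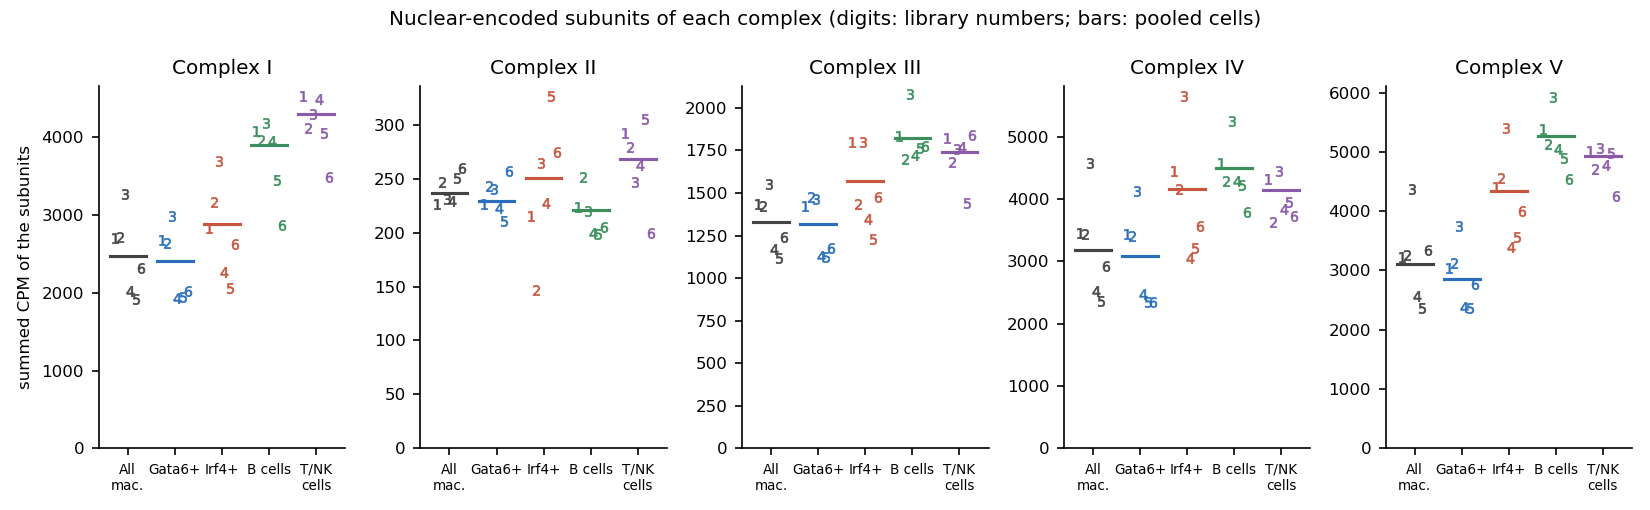
Summed CPM of the subunits of each complex (vertical axes) in the cell classes (horizontal axes), where digits are the 6 library numbers and bars the pooled cells. The pooled sums of complexes I, III, IV and V are lower in macrophages than in B cells or T/NK cells, with complex IV of library number 3 the exception against T/NK cells (4583 and 4447 CPM), whereas complex II sums to 236, 221 and 268 CPM in the 3 classes.

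Macrophages were compared with B cells gene by gene. A subunit is said to be lower or higher where the ratio of pooled CPM, with 1 CPM added, reached 1.5-fold and the direction was the same in all 6 libraries, among features with a mean of at least 5 CPM over both classes. No p-value is given, since the library numbers carry no condition and cells are not replicates. Of 75 subunits that could be compared, 44 were lower in macrophages, where 30.3% of all 9394 features were lower, and 1 was higher, where 24.4% of features were. The list median was a log2 ratio of -0.72, against -0.14 over all features, and the median within single libraries ran from -0.97 to -0.40. By complex, 22 of 36 subunits of complex I were lower (median -0.77), 3 of 8 of complex III (-0.34), 8 of the 11 measured subunits of complex IV (-0.65) and 10 of 16 of complex V (-0.79). In complex II, 1 of 4 was lower and 1 higher, and its median of +0.30 became -0.11 where mitochondrial, ribosomal protein and immunoglobulin genes were left out of the CPM denominator.

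In complex I the lowest ratios were found among accessory and core subunits alike. Ndufa12, an accessory subunit of the peripheral arm, had 29.7, 30.6, 57.1, 24.1, 20.01 and 27.0 CPM in macrophages of library numbers 1 to 6, and 104, 85.4, 136, 69.5, 62.0 and 67.3 CPM in B cells. Its macrophage and B cell values did not overlap, and the log2 ratio was -1.60 (95% counting interval -1.79 to -1.48). Ndufs3 and Ndufs8, core subunits of the arm that carries electrons from NADH, had log2 ratios of -1.52 and -1.51, with 20.9 against 61.6 CPM and 24.7 against 72.2 CPM. Among the other core subunits, Ndufs7 (-1.04) and Ndufv2 (-0.82) were lower as well. Ndufs1, the largest core subunit, had a ratio of 0.00, and Ndufv1, which holds the NADH site, had a ratio of -0.40 with 1 library in the opposite direction. Ndufa1 (+0.35, above B cells in 5 of 6 libraries) and Ndufb9 (+0.09, 4 of 6) had ratios above 0, which became -0.07 and -0.33 with the other denominator. Among the other accessory subunits Ndufa13 (-1.33), Ndufb2 (-1.19), Ndufc2 (-1.12) and Ndufa5 (-1.11) had the lowest ratios, and the subunit nearest to 0 that was still lower was Ndufab1 (-0.59), the mitochondrial acyl carrier protein. Intervals here cover counting error only.

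Complex III and complex IV showed the same direction with smaller ratios. Uqcrh, the hinge protein that contacts cytochrome c1, had 332, 306, 253, 253, 219 and 222 CPM in macrophages and 549, 492, 539, 591, 542 and 520 CPM in B cells, with a log2 ratio of -0.95. The lowest B cell value was thus above the highest macrophage value. Uqcr10 (-0.91) and Uqcrc2 (-0.64) were lower too, whereas the Rieske iron-sulfur protein Uqcrfs1 had a ratio of -0.16 with both directions among libraries. In complex IV, Cox7b was the subunit with the largest drop, at 113 against 250 CPM and a log2 ratio of -1.14. The subunits Cox6b1 (-0.78), Cox6c (-0.74), Cox7a2 (-0.73), Ndufa4 (-0.72), Cox5b (-0.65), Cox7c (-0.61) and Cox5a (-0.59) were lower by at least 1.5-fold. Cox4i1, the largest nuclear subunit of complex IV, had 642 CPM in macrophages and 661 in B cells. Cox6a1 was the only measured complex IV subunit above B cells in all libraries, at +0.31, and this became -0.12 with the other denominator.

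Complex V had the largest ratio of any subunit. Atp5g2, which encodes subunit c of the membrane ring, had 224, 210, 234, 133, 109 and 97.6 CPM in macrophages and 631, 611, 555, 569, 471 and 259 CPM in B cells. Its log2 ratio was -1.66 (counting interval -1.73 to -1.60), 3.17-fold lower, and the macrophage and B cell values did not overlap. In the central stalk, Atp5c1 (gamma) was lower at -1.28, Atp5d (delta) at -0.98 and Atp5e (epsilon) at -0.81. The membrane subunits Atp5j2 (-1.21) and Atp5k (-1.16) followed. The catalytic head subunits were much nearer to B cells, with 185 against 198 CPM for Atp5a1 (alpha) and 160 against 207 CPM for Atp5b (beta). The table holds separate features Atp5o, with 0 macrophage UMIs, and Atp5o.1, with 66.1 against 140 CPM. How reads were divided between them is not given in the sources used here.

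**Figure D2:**
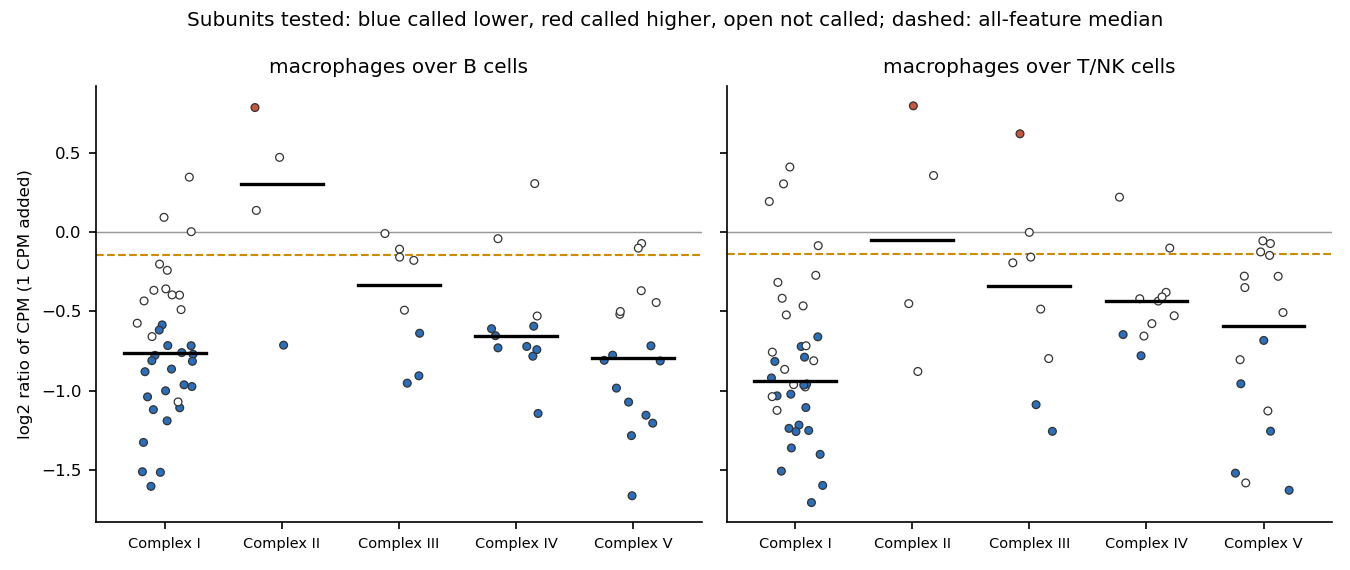
Log2 ratio of CPM (vertical axes) in macrophages over B cells (left) and over T/NK cells (right) for the subunits of each complex (horizontal axes), where each point is 1 subunit, filled where lower (blue) or higher (red) by the limits, bars are the medians of each complex and the dashed line is the median of all features. Of 75 subunits, 68 lie below 0 in each comparison, and the list medians are -0.72 in both.

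Against T/NK cells, which share the same macrophages as the other side of the ratio, 28 of 75 subunits were lower in macrophages, where 17.8% of all 9642 features were lower, and 2 were higher, where 21.0% of features were. The list median was -0.72 against -0.14 over all features, and single libraries gave -1.01 to -0.27. Only 18 T/NK cells came from library number 6, and without that library 41 subunits were lower, where 25.4% of all features were. Complex I held 19 of the lower subunits (median -0.94), complex V 5 (-0.60), complex III 2 (-0.34) and complex IV 2 (-0.44), and no subunit of complex II was lower.

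Ndufa6, an accessory subunit of the LYR protein family, had the largest ratio against T/NK cells. It had 146, 130, 140, 115, 103 and 113 CPM in macrophages and 419, 424, 414, 488, 355 and 377 CPM in T/NK cells, a log2 ratio of -1.71 (counting interval -1.84 to -1.59). All T/NK values were above all macrophage values. Its B cell level was 219 CPM, so that the ratio against B cells was -0.77. Ndufa13, also described as GRIM-19, had 70.9 against 217 CPM (-1.60), and Ndufb3 had a ratio of -1.51. Core subunits were lower as well, with Ndufs3 at -1.25, Ndufs7 at -1.24 and Ndufv1 at -1.11. In complex III, Uqcrh (-1.26) and Uqcrc2 (-1.09) were lower, while Uqcrq, a small subunit that contacts cytochrome b, was higher at 403 against 262 CPM. Uqcrq had 425, 426, 433, 381, 376 and 356 CPM in macrophages and 308, 226, 268, 213, 231 and 244 CPM in T/NK cells, a log2 ratio of +0.62, and +0.22 with the other denominator. These values did not overlap. Against B cells Uqcrq had a log2 ratio of -0.11 with 3 libraries in each direction.

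In complexes IV and V, Cox7b (-0.78), Cox5b (-0.65), Atp5g2 (-1.63), Atp5j2 (-1.52), Atp5h (-1.26), Atp5k (-0.96) and Atp5mpl (-0.68) were lower than in T/NK cells. Atp5c1 had a ratio of -1.58 but the opposite direction in library number 6, and so did not meet the limits. Ratios above 0 were found for Ndufa1 (+0.41, 5 of 6 libraries), Ndufs1 (+0.30), Cox6a1 (+0.22, 4 of 6) and Ndufc1 (+0.19), and the last 3 fell to -0.08, -0.18 and -0.21 with the other denominator.

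Within complex II, Sdhb differed in direction from the other subunits in the comparison with B cells. Sdhc, which with Sdhd anchors the enzyme in the membrane and binds ubiquinone, had 46.3, 52.8, 46.3, 63.0, 62.3 and 67.4 CPM in macrophages of library numbers 1 to 6. It had 27.8, 33.8, 32.8, 30.02, 29.1 and 43.0 CPM in B cells, and 24.9, 25.1, 36.1, 37.5, 33.0 and 44.4 CPM in T/NK cells. Every macrophage value was above every lymphocyte value. The nearest lymphocyte value, 44.4 CPM, came from only 18 T/NK cells in library number 6, so the gap to it is uncertain. The log2 ratios were +0.79 (counting interval 0.65 to 0.96) over B cells and +0.80 (0.43 to 1.23) over T/NK cells, and remained above 0 with the other denominator, at +0.37 and +0.41, below 1.5-fold. Sdhc was the only subunit higher in macrophages in the comparison with B cells.

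Sdhd followed Sdhc in the comparison with B cells. It had 56.9, 65.04, 53.5, 51.5, 66.2 and 70.7 CPM in macrophages and 38.02, 49.7, 43.8, 33.9, 37.0 and 57.1 CPM in B cells, so that macrophages were above B cells in each library while the ranges overlapped. The log2 ratio was +0.47, and +0.06 with the other denominator. Over T/NK cells it was +0.36, in 5 of 6 libraries, and -0.04 with the other denominator.

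Sdhb, the iron-sulfur subunit, went the other way. It had 52.3, 55.6, 60.8, 41.8, 40.0 and 36.0 CPM in macrophages and 91.0, 93.5, 80.3, 70.8, 62.9 and 39.9 CPM in B cells, lower in each library with a log2 ratio of -0.71. In T/NK cells it had 89.1 CPM, for a ratio of -0.88 that held in 5 of 6 libraries. Sdha, the flavoprotein that oxidises succinate, had 74.5 CPM in macrophages, 67.7 in B cells and 102 in T/NK cells, a ratio of +0.14 over B cells and of -0.45 over T/NK cells. The 4 subunits, which form the enzyme in equal numbers, therefore did not share a direction at the level of transcripts.

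**Figure D3:**
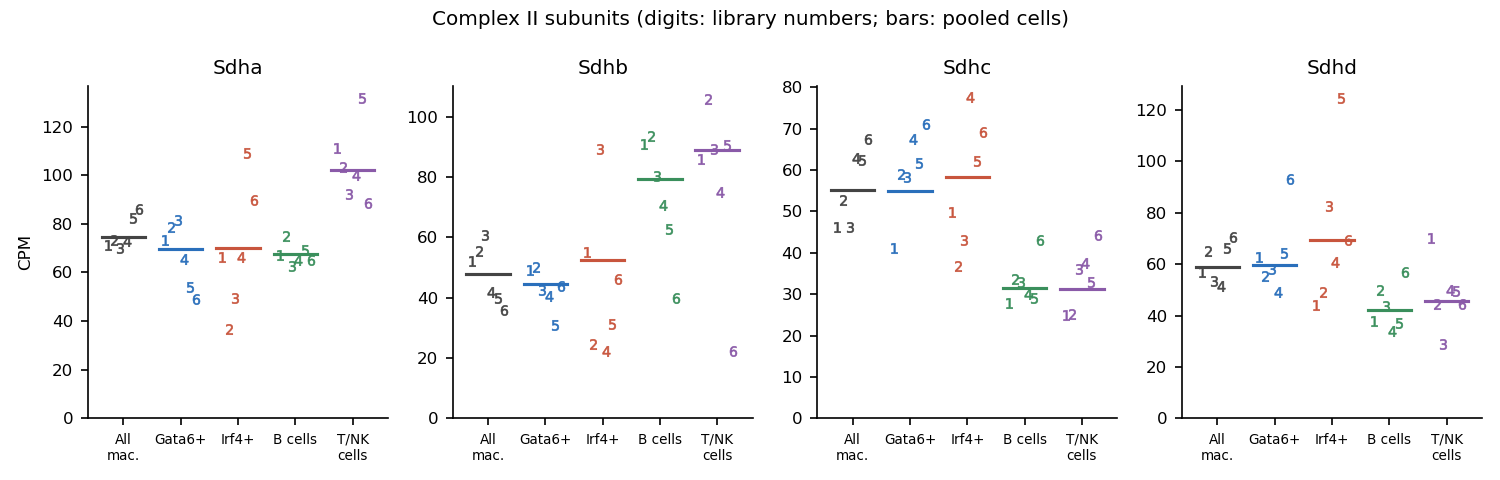
CPM of Sdha, Sdhb, Sdhc and Sdhd (vertical axes) in the cell classes (horizontal axes), where digits are library numbers and bars the pooled cells. Sdhc lies between 46.3 and 67.4 CPM in macrophages, above all values of B cells and T/NK cells, while Sdhb lies lower in macrophages than in B cells of the same library. The T/NK value of library number 6 rests on 18 cells.

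The genes for subunit c held different shares in macrophages and lymphocytes. Of all Atp5g1, Atp5g2 and Atp5g3 UMIs, Atp5g2 made up 31.3%, 29.4%, 26.5%, 30.6%, 26.9% and 18.2% in macrophages of library numbers 1 to 6, and 47.3%, 48.4%, 39.9%, 50.9%, 47.5% and 36.0% in B cells. The pooled shares were 28.6% (exact binomial 95% interval 27.7% to 29.6%) in macrophages, 46.0% (45.3% to 46.7%) in B cells and 51.7% (49.4% to 54.0%) in T/NK cells. The highest macrophage share was below the lowest share in either lymphocyte class. For T/NK cells that lowest share, 36.8%, came from only 18 cells of library number 6. Atp5g3 was the leading gene in macrophages with 50.7% (48.7% to 54.7% by library number), against 36.7% in B cells (32.3% to 41.4%) and 35.8% in T/NK cells (31.5% to 38.8%), again without overlap. Atp5g2 led in the pooled lymphocytes but not in every library, as Atp5g3 had the larger share in B cells of library numbers 3 and 6 (40.4% and 41.4%) and an equal share, 36.8%, in T/NK cells of library number 6. Atp5g1 held 20.7%, 17.3% and 12.5%, with overlapping ranges. These shares compare genes within a class and do not depend on the CPM denominator. The 3 genes encode the same mature protein behind different targeting peptides, and how reads that match more than 1 of them were counted is not given in the sources used here, so the split is uncertain to that extent. Between Gata6+ and Irf4+ macrophages the Atp5g2 shares, 30.7% and 24.3%, overlapped by library number.

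**Figure D4:**
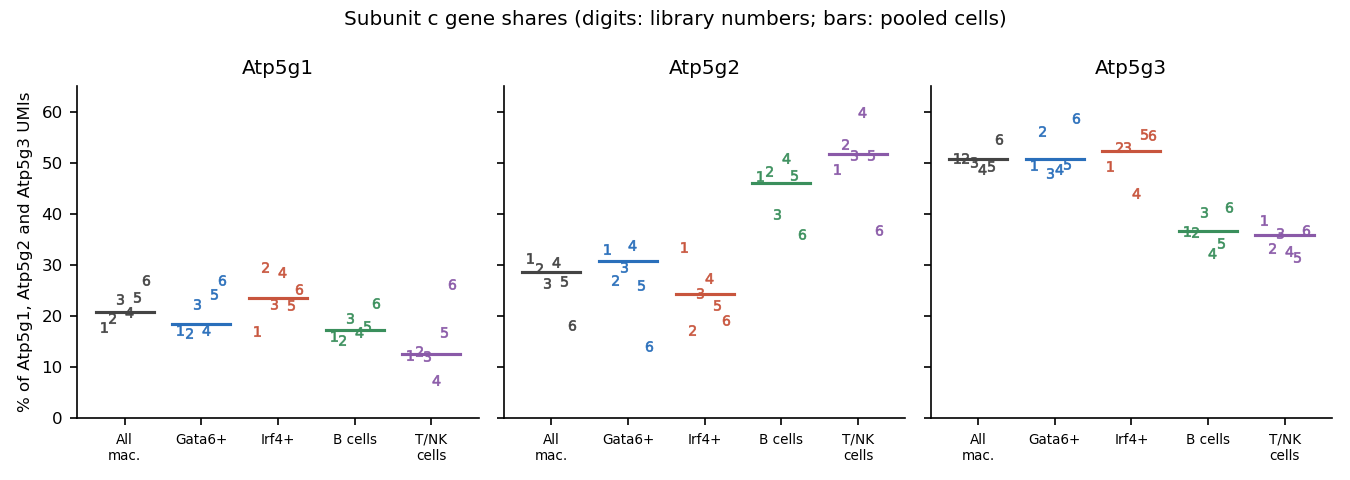
Share of Atp5g1, Atp5g2 and Atp5g3 in their summed UMIs, in percent (vertical axes), by cell class (horizontal axes), where digits are library numbers and bars the pooled cells. Atp5g2 lies between 18.2% and 31.3% in macrophages and from 36.0% upward in B cells, and Atp5g3 is ordered the opposite way.

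Muscle, testis and other tissue forms of complex IV subunits were rare. Cox4i2, Cox7b2, Cox8b and Cox8c had 0 UMIs in macrophages, B cells and T/NK cells, which in macrophages allows up to 0.218 CPM each. Ndufa4l2 had 0 UMIs in macrophages and 6 in B cells, Cox6b2 had 4 and 15, and Cox7a1, the heart and muscle form, had 21 and 13, so that Cox7a1 made up 0.737% of Cox7a1 and Cox7a2 UMIs in macrophages. Cox6a2, the heart and muscle form of Cox6a1, was found in 42 of 2773 macrophages with 59 UMIs (4.28 CPM), in 10 of 2948 B cells with 11 UMIs and in 2 T/NK cells with 2 UMIs. It made up 1.55% of Cox6a1 and Cox6a2 UMIs in macrophages and 0.269% in B cells. Of the 59 UMIs, 13 came from 1 Irf4+ cell of library number 4 that also held 8 UMIs of Siglech, a plasmacytoid dendritic cell marker, and none of Csf1r or Adgre1. Without that cell the level in macrophages was 3.34 CPM. Of the pseudogene copies, Ndufb4c had 6.82 CPM in macrophages and 12.4 in B cells, and Cox6c2, Ndufs6b and Ndufa11b stayed below 1 CPM in both.

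Nuclear respiratory chain transcripts took a larger part of the UMIs of Irf4+ than of Gata6+ macrophages. As above, such shares do not give the number of transcripts per cell. The subunits summed to 13202 CPM in Irf4+ cells (10289 to 16818 by library number) and to 9893 CPM in Gata6+ cells (7998 to 12576). Library numbers 1 to 6 held 31, 14, 44, 35, 18 and 113 Irf4+ cells, so that some single-library values of this class rest on few cells. The same libraries held 206, 103, 36, 157, 78 and 55 Gata6+ cells. Of 76 subunits compared, 13 were higher in Irf4+ cells, where 8.02% of 8825 features were higher, and 0 were lower, where 5.98% of features were. The list median was +0.30 against +0.10 over all features, and lay above 0 in each library, from 0.17 to 0.44. Complexes IV (+0.51) and V (+0.49) had larger medians than complexes I (+0.27), III (+0.18) and II (+0.15). The 76 subunits and the complex IV median include Cox6a2, at 14.2 CPM in Irf4+ and 4.47 CPM in Gata6+ cells. Without 1 cell its Irf4+ level was 3.34 CPM, and it would not have reached the mean of 5 CPM. With median-of-ratios size factors in place of total UMIs the list median was +0.20 and 5 subunits were higher, where 6.06% of features were higher and 7.09% lower. With libraries weighted equally 7 were higher, where 7.33% of features were, and without library number 3 there were 8, where 8.77% of features were, both near the share of all features. Without that library the list median was 0.09 above that of all features, against 0.20 with it. In only the 4 libraries with at least 30 cells in both classes, a limit chosen after seeing the data, the list median was 0.21 above that of all features.

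The higher subunits were 1 of complex I, 2 of complex III, 4 of complex IV and 6 of complex V. Atp5e, the epsilon subunit of the ATP synthase stalk, had 1083, 833, 1344, 710, 794 and 938 CPM in Irf4+ cells and 438, 500, 606, 412, 372 and 459 CPM in Gata6+ cells. The values did not overlap, with a log2 ratio of +1.18 (counting interval 1.08 to 1.29). The Irf4+ level of Atp5e, 1013 CPM pooled, was close to the 959 CPM of B cells. Atp5k, the membrane subunit e, had a pooled ratio of +1.15 but single-library ratios of 0.18 to 1.06, and a ratio of +0.51 with libraries weighted equally. Of the 255 Irf4+ cells, 113 came from library number 6, where the level of Atp5k was highest.

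The other higher subunits of complex V were Atp5j2 (+0.86), Atp5f1 (+0.72), Atp5mpl (+0.65) and Atp5j (+0.60). Those of complex IV were Cox7b (+0.86), Cox6c (+0.72), Cox8a (+0.70) and Cox7a2 (+0.59). Cox7b had 249, 171, 262, 128, 156 and 144 CPM in Irf4+ cells and 118, 132, 140, 66.4, 82.2 and 87.5 CPM in Gata6+ cells, above within each library. In complex III, Uqcrfs1 (+0.84) and Uqcr10 (+0.82) were higher, and in complex I only Ndufa13 (+0.71). Ndufs4, an accessory subunit of the complex I electron input module, was the only subunit below Gata6+ cells in each library, at 30.9 against 39.1 CPM and a ratio of -0.33, under 1.5-fold. Atp5g2, at -0.20 with both directions among libraries, did not move with the other subunits of complex V.

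Gata6+ and Irf4+ cells differed beside these genes. Markers of small peritoneal macrophages summed to 17515 CPM in Irf4+ cells and 2956 in Gata6+ cells, and those of large peritoneal macrophages to 701 and 1582 CPM. B cell markers summed to 117 and 8.93 CPM, dendritic cell markers to 28.4 and 8.14 CPM with Xcr1 and Clec9a at 0 in Irf4+ cells, and the 6 macrophage markers to 12608 and 22951 CPM. In B cells themselves the B cell markers summed to 3075 CPM and the small peritoneal macrophage markers, which include MHC class II genes, to 13057 CPM. The part of these other cell types in the ratios was not tested. Cells were assigned by 1 or more UMIs of a low transcript, and 222 Gata6+ and 135 Irf4+ cells held at least 2, with a list median of +0.31 between those. The median depth was 5519 UMIs per Gata6+ cell and 4038 per Irf4+ cell. With cells thinned to 1500 UMIs, which left 270 and 154 cells, the list median was +0.34 and 7 subunits were higher, where 2.74% of features were.

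**Figure D5:**
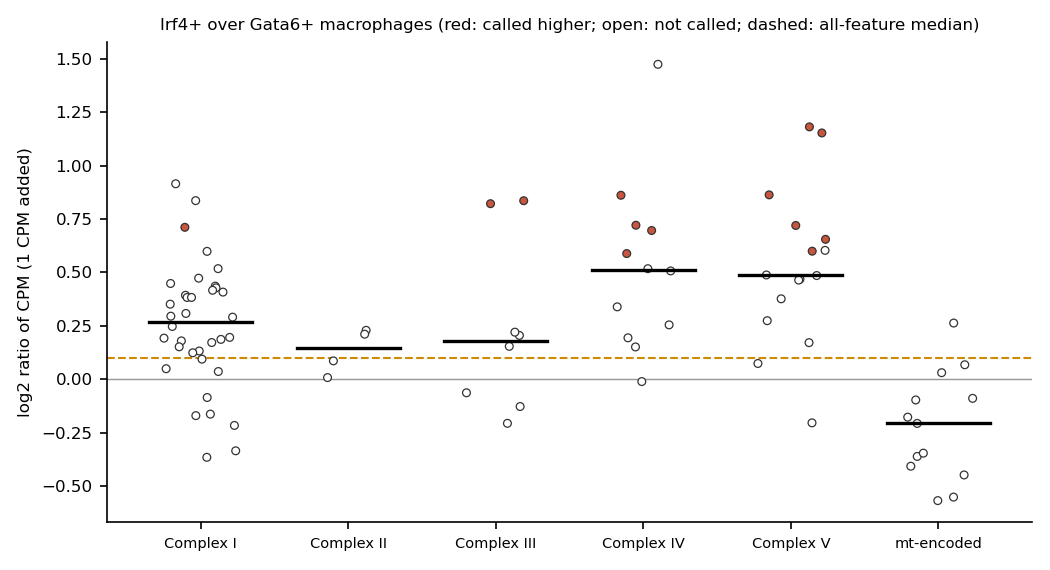
Log2 ratio of CPM (vertical axis) in Irf4+ over Gata6+ macrophages for the subunits of each complex and the mitochondrially encoded subunits (horizontal axis), where each point is 1 gene, red where higher by the limits, bars are medians and the dashed line is the median of all features. Of 76 nuclear subunits, 65 lie above 0, with Atp5e at +1.18 and Atp5k at +1.15 the highest red points. The highest open point is Cox6a2, counted in both numbers, of whose 17 Irf4+ UMIs 13 came from 1 cell.

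Subunits encoded by the mitochondrial genome had medians nearer to 0 than the nuclear ones, or on the other side of it. The 13 mitochondrial transcripts had a median log2 ratio of -0.39 between macrophages and B cells, -0.08 between macrophages and T/NK cells, and -0.21 between Irf4+ and Gata6+ macrophages. In the last comparison 9 of 13 were lower in Irf4+ cells in each library, as were 7.80% of all features. The ratio of mitochondrial to nuclear subunit UMIs was 2.17 in Gata6+ cells, with 1.95, 2.26, 1.63, 2.37, 2.73 and 3.15 in library numbers 1 to 6. In Irf4+ cells it was 1.38, with 1.37, 1.51, 0.813, 1.65, 1.83 and 1.79, lower within each library. All macrophages together had a ratio of 2.00, B cells 1.59 and T/NK cells 1.43. Macrophages lay above B cells in 4 of 6 libraries and above T/NK cells in 5 of 6. Cells with over 10% mitochondrial UMIs had been left out before these ratios were taken. Single transcripts differed, as mt-Nd4, a proton-pumping subunit of complex I, was higher in macrophages than in T/NK cells (+0.88), and mt-Nd4l was lower than in B cells (-0.59).

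Levels also varied by library number within a class. Of 73 subunits with at least 20 CPM in macrophages, 51 were highest in library number 3, 37 were lowest in library number 5 and 21 in library number 4. How many of all features were highest or lowest in these libraries was not counted, here or for B cells below. Whether the pattern is particular to these genes is therefore not known. Across libraries the macrophage sum of complex IV varied 1.94-fold, that of complex V 1.84-fold, that of complex I 1.70-fold and that of complex III 1.39-fold, but that of complex II only 1.15-fold. Among these 73, Ndufa13 varied most, from 27.7 CPM in library number 5 to 133 in library number 3, and Uqcrq least, from 356 to 433 CPM. B cells shared the high library, with 35 of 74 subunits highest in library number 3, but not the low one, as 46 were lowest in library number 6. The sum over all subunits varied 1.75-fold in macrophages, 1.34-fold in B cells and 1.18-fold in T/NK cells. With 1 library for each condition, the condition and the library cannot be told apart in these values.

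Assembly factors had medians below 0 in macrophages over lymphocytes. Of the 13 that could be compared between macrophages and B cells, all had ratios below 0. By the limits 8 were lower (median -1.17), where 30.3% of all features were. Among these were Ndufaf7 (-2.23) and Ndufaf4 (-1.61), assembly factors of complex I, and Sdhaf4 (-1.49), a factor that helps to build complex II. Against T/NK cells 3 of 12 were lower (median -0.87), where 17.8% of all features were. These were Sdhaf4 (-2.02), Cox7a2l (-1.25) and Sdhaf2, which adds the flavin to Sdha (-0.62). Between Irf4+ and Gata6+ macrophages 0 of 9 met the limits, where 8.02% of all features were higher and 5.98% lower. Their median was +0.22, against +0.30 for all subunits and +0.15 to +0.51 for the subunits of single complexes. It lay above 0 in 3 of 6 libraries and was lowest, at -3.12, in library number 5, which held 18 Irf4+ cells. The assembly members summed to 332 CPM in Irf4+ and 367 CPM in Gata6+ cells. Whether these factors follow the subunits cannot be told from so few genes and cells.

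Gene lists around the chain were set beside it. Mitochondrial ribosomal proteins, which translate the mitochondrially encoded subunits, had a median of -0.77 in macrophages over B cells. Of these 78, 45 were lower, where 30.3% of all features were. Over T/NK cells their median was -0.54, with 21 lower and 1 higher, where 17.8% of all features were lower and 21.0% higher. Mrps35 was low in both, at -1.81 and -2.18. In Irf4+ over Gata6+ macrophages the median of these proteins was +0.31, close to that of the subunits. By the limits 0 were higher and 1 lower, where 8.02% and 5.98% of all features were. Assembly factors of complexes III and IV outside the name rule had medians of -0.48 and -0.65. Of these, 5 of 18 and 4 of 19 were lower, near the shares of all features, 30.3% and 17.8%. Surf1, needed for complex IV assembly, had ratios of -1.68 and -2.46. In Irf4+ over Gata6+ macrophages this list had a median of +0.67, with 3 of 18 higher, where 8.02% of all features were. Among the 3 was Cox17, a copper chaperone of complex IV, at +1.52. Enzymes of the citric acid cycle stood nearer to 0, at -0.10, +0.14 and +0.05 in the 3 comparisons, with Fh1 lower (-1.24) and Dld higher (+0.99) than in B cells. Among carriers and channels, Slc25a4, the adenine nucleotide carrier of heart and muscle, was lower than in B cells (-1.99), Vdac3 was higher than in B cells (+0.91) and T/NK cells (+0.83), and Cycs, cytochrome c itself, was higher in Irf4+ than in Gata6+ macrophages (+0.93). Among regulators of the transcription of the chain, Tfam was lower than in B cells (-1.25) and T/NK cells (-0.96), whereas Yy1 was higher than in B cells (+0.73). Of 8 compared with B cells, 3 were lower and 1 higher, where 30.3% and 24.4% of all features were. Of 9 compared with T/NK cells, 2 were lower and 0 higher, where 17.8% and 21.0% of all features were.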

How the data were processed

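Per the labels, libraries were made with the 10x 5′ kit, and the submitters' processing notes name Cell Ranger 2.2 and Seurat 3.0. The authors deposited 1 aggregated table of raw UMI counts, which was used unchanged. Cells needed 500 genes, log genes over log UMIs of 0.8 or above and no more than 10% mitochondrial UMIs. Called doublets (0.606% of barcodes) were left out only in an alternative. Counts of each class were summed over cells, in all and per library number, and divided by the class total (CPM). CPM intervals are exact Poisson, shares exact binomial and ratio intervals exact conditional ones, at 95%. Members, lists and limits were chosen with earlier results of these data known. Named were, per complex and comparison, up to 3 subunits with the largest ratio among those with the same direction in each library, complex II, tissue forms and ratios opposite to their complex, and further members chosen after their values were seen. No test was run, as each condition has 1 library. Calculations were tested on simulated data. Python 3.11.15, numpy 2.4.6, scipy 1.17.1, matplotlib 3.10.9 and scanpy 1.11.5 were used.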

Additional observations from a re-analysis of the deposited data

Results flagged for a closer look

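Ndufb1-ps, left out of the members by its name, held 4781 UMIs in the kept cells, above the 3 UMIs that a count of 0 would allow, and is given here because it lies outside the features compared. Its name carries the ending -ps, but the gene annotation types it as a long non-coding RNA of a bidirectional promoter, not as a pseudogene. Complex I has a subunit of the corresponding name. Its level was 112 CPM in macrophages, 121 in B cells and 119 in T/NK cells, and 178 CPM in Irf4+ against 91.7 CPM in Gata6+ macrophages.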

How the results depend on the processing

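Single ratios were recomputed only for members named for the size of their ratio or for a sign opposite to their complex. Of these, none that met the limits changed sign under the alternatives run. Medians and counts over all subunits stayed within the spread between libraries or within 1.5 times the count given in 168 cases. They did not in 18. Single ratios and medians of complexes and assembly members stayed within the counting interval or that spread in 1527 cases. They moved further in 165. Leaving mitochondrial, ribosomal protein and immunoglobulin genes out of the CPM denominator moved the list median to -1.14 over B cells and -1.12 over T/NK cells, while all features moved to -0.60 and -0.58, with 9 of 82 single values and medians changing sign, and left 0 subunits higher in either comparison, with 60 and 48 lower. All features then split into 16.6% higher and 45.9% lower than in B cells, and into 14.1% higher and 23.1% lower than in T/NK cells. The count higher than in B cells, 1, became 2 with median-of-ratios size factors or no minimum CPM. The count higher than in T/NK cells, 2, became 1 with at least 1000 genes per cell, 0 with doubled class limits and 1 with cells of both lymphocyte classes kept. For Irf4+ over Gata6+ cells the median became 0.20 with size factors. The 13 higher subunits became 5 with size factors, 7 with libraries weighted equally and 7 with thinned cells. In the same order 6.06%, 7.33% and 2.74% of all features were higher. Weighting libraries equally gave 1 lower subunit. Leaving out each library in turn gave medians of -0.74 to -0.61 over B cells, -0.77 to -0.61 over T/NK cells and 0.22 to 0.43 for Irf4+ over Gata6+ cells. The counts higher ran over 1 to 1, 1 to 3 and 8 to 16, and the counts lower over 40 to 46, 26 to 41 and 0 to 0, with 8 higher Irf4+ subunits without library number 3 and 41 lower than in T/NK cells without library number 6. The causes were not tested. Using only libraries with at least 30 cells in both classes was chosen after seeing the data. No paired analysis was possible because no test was run between conditions, whose libraries are not tied to the library numbers, and the cell classes of a library were instead compared within it by their direction.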
